A study of Mus musculus with 6 samples.

Results

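The genes described here are phospholipases and phospholipid acyltransferases of the mouse kidney, taken as every gene whose name on the array begins with Pla2g, Lpcat, Agpat, Mboat, or Pnpla followed by a digit. The array names 45 such genes, out of 37324 gene names in all, and reads them with 88 probes. One of the 45, Pla2g10os, is an antisense transcript. The RefSeq annotation uses other symbols for 3 of them, Gpat4 for Agpat6, Gpat3 for Agpat9, and Plaat3 for Pla2g16, and the names on the array are kept below.

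Left kidneys came from 3 wild-type (WT) and 3 Selenbp1-KO male mice of the strain C57BL/6J, 8 weeks old and fasted for 20 h, with 1 one-color Agilent array per mouse. Both groups were fasted, so the comparison covers the fasted state alone, and no tissue-specific driver of the knockout is named in the sources used here. Selenbp1 encodes a selenium-binding protein, and the arrays were run to find genes that respond to its loss, with arachidonic acid metabolism in view. The log2 signal of Selenbp1 was 7.07, 7.02, and 7.02 in WT and 4.13, 3.98, and 4.10 in Selenbp1-KO kidneys, which goes with the genotype on each label.

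Membrane phospholipids are remodeled in a cycle. Phospholipases A2 cut one fatty acid, often arachidonic acid, from a phospholipid and leave a lysophospholipid, and the freed arachidonic acid is the starting material of prostaglandins, leukotrienes, and the products of cytochrome P450. Lysophospholipid acyltransferases (Lpcat, Mboat) put a fatty acid back, Agpat enzymes add one earlier, while phospholipids and triacylglycerol are first made, and the patatin-like enzymes (Pnpla) cut triacylglycerol or phospholipid.

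The 6 probes shown next carried most of what follows, and the first 30 of the 60 bases of each are given here, because the 2 probes of Lpcat2 and the 2 of Pla2g16 gave different results for 1 gene. They are written 5′ to 3′ as on the array, with the position of the whole probe on mm9. No base is marked by a capital.
Lpcat4, NM_207206, chr2:112087073-112087132, plus strand: caaacccagccctgctctcaggacggcgtc
Lpcat2, NM_173014, first probe, chr8:95442306-95442365, plus strand: ccctactggttgtgttgactgaggctaagt
Lpcat2, NM_173014, second probe, chr8:95442241-95442300, plus strand: ttcttccaaaagtgttttttattaacctgc
Pla2g16, NM_139269, first probe, chr19:7660216-7660275, plus strand: atagattctattgctttataattaggttta
Pla2g16, NM_139269, second probe, chr19:7662976-7663035, plus strand: gataacaatggactagaccttcaaactgta
Pnpla5, NM_029427, chr15:83943118-83943177, minus strand: tggaactggagatggtgccccagggctctg
The exon each probe reads is not given in the sources used here. The first Lpcat2 probe, with the higher mean signal, lies 5 bases from the second. The Pla2g16 probes lie 2700 bases apart, and 23.3% of the bases of the first are G or C, against 38.3% of the second.

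All values below are log2 of the background-subtracted signal minus log2 of the 75th percentile of the same array, so 0 is the signal at that percentile, and a difference is Selenbp1-KO minus WT. They are listed in the order WT replicates 2, 3, and 4 and Selenbp1-KO replicates 1, 2, and 3. The 75th percentile signal itself ran from 477 to 751, between 51.8% and 55.5% of spots were well above background, and no spot was saturated. WT replicates 2 and 3 shared slide side 1, and WT replicate 4 lay with all 3 Selenbp1-KO arrays on slide side 2. The side was inferred from the position numbers in the scan names. Where a gene has several probes, the one with the highest mean over the 6 arrays stands for it. Genes were tested with limma at the criterion of the study's methods, an unadjusted p under 0.05, and Benjamini–Hochberg adjusted values over all 56097 probes are given beside it. Kidney RNA is a mixture, so fewer cells of a type and less RNA per cell cannot be told apart. The 12 kidney marker genes were well above background on all arrays and none of them passed the test.

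Most of the enzymes with a signal well above background on all 6 arrays differed little between the genotypes. Of the 45 genes, 5 passed the unadjusted test, all higher in Selenbp1-KO kidneys: Lpcat4, Pnpla3, Pnpla5, Pla2g10, and Pla2g4f. That is 11.1% of them, beside 8.00% of all 36997 genes tested (6.87% higher and 1.14% lower). Of the 29 genes whose probe was well above background on all 6 arrays, 1 passed, Lpcat4, beside 5.48% of all such genes. No member passed after adjustment, and the lowest adjusted p was 0.279 in limma. By the methods' t-test on the same values, 3 genes passed unadjusted, Lpcat4, Pla2g16, and Pnpla5 (7.72% of all genes did), and 0 passed after Benjamini–Hochberg. With quantile normalization 5 genes passed as well (9.08% of all genes did), Lpcat2, Lpcat4, Mboat2, Pla2g16, and Pnpla5. These counts rest on single arrays: 1 gene, Pnpla5, passed without WT replicate 2, where 3.50% of all genes did. Without WT replicate 4, 9 passed, or 20% beside 31.9% of all genes. After adjustment 14 member probes and 12522 probes in all passed there (lowest member adjusted p = 0.049 in limma). None of the 14 was well above background on any array, and 10 of them had, on all 6 arrays, the value entered for spots not above background. With the slide side as a block, which sets the Selenbp1-KO arrays against WT replicate 4, 6 genes passed, beside 6.09% of all genes. The direction over the whole array turned under this block, from 3632 higher and 847 lower probes to 1361 higher and 2290 lower. The median difference of the 45 genes was 0.06, beside 0.13 for all genes, and 33 were higher and 12 lower.

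**Figure D1:**
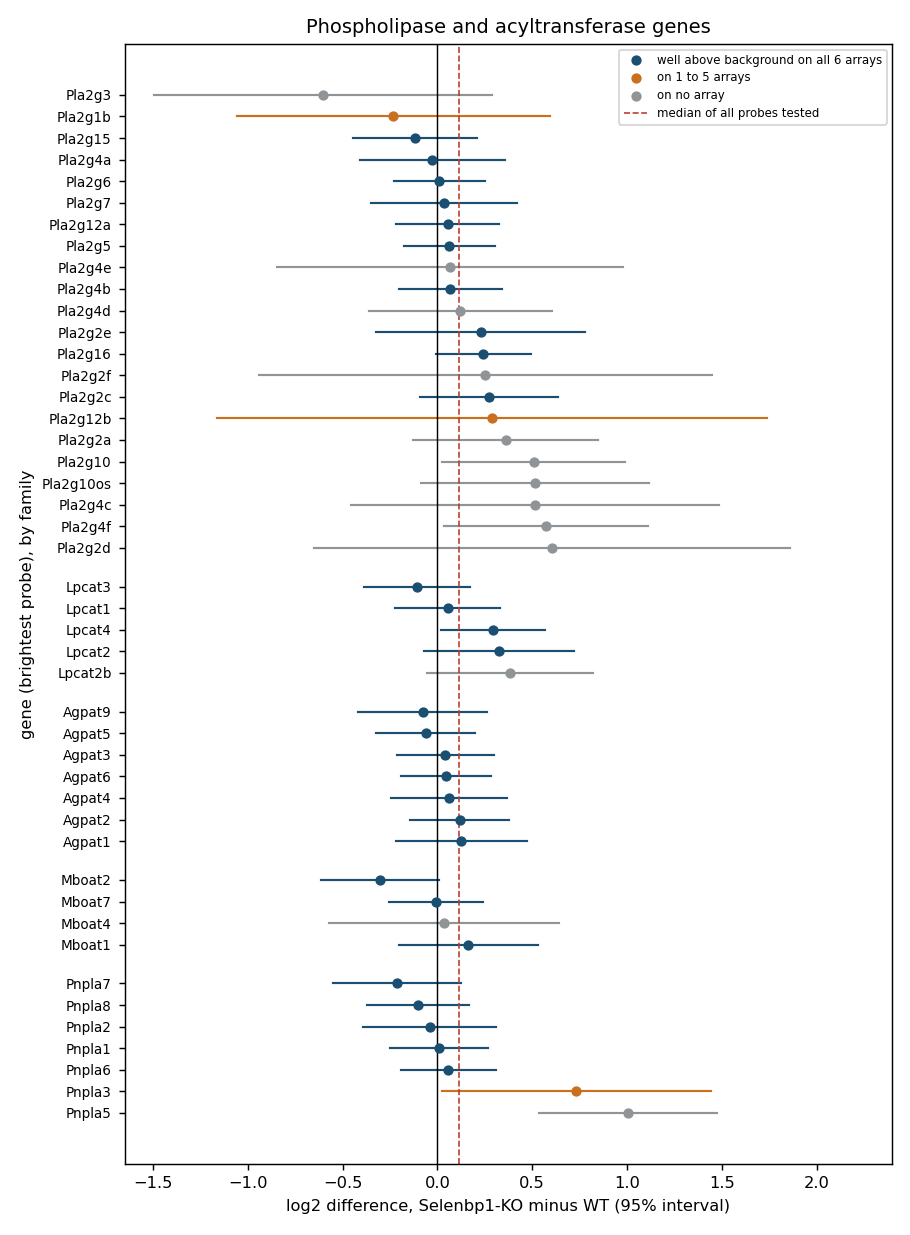
Difference in log2 signal, Selenbp1-KO minus WT (3 arrays each), of the 45 genes by family. Points are the brightest probe of each gene, lines the 95% interval from limma, and colors the number of arrays on which the probe was well above background. The 29 genes in dark blue lie between −0.30 and 0.32, and the widest intervals belong to genes on few or no arrays.

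The precision differed greatly between the genes. By family, the probe was well above background throughout a genotype for 10 of 22 Pla2g, 4 of 5 Lpcat, 7 of 7 Agpat, 3 of 4 Mboat, and 6 of 7 Pnpla genes. For 29 genes the probe was well above background on all 6 arrays, and their differences ran from −0.30 to 0.32 with a median of 0.05, 19 higher and 10 lower. Of these, 25 differed by less than 0.25, and for 22 the 95% interval lay within 0.5 on either side of 0. The other 7 intervals, of Lpcat2, Lpcat4, Mboat1, Mboat2, Pla2g2c, Pla2g2e, and Pnpla7, reached further, up to 0.78 for Pla2g2e. Pla2g1b, Pla2g12b, and Pnpla3 were well above background on some arrays, and 13 genes on none: Lpcat2b, Mboat4, Pnpla5, Pla2g10os, and Pla2g2a, Pla2g2d, Pla2g2f, Pla2g3, Pla2g4c, Pla2g4d, Pla2g4e, Pla2g4f, and Pla2g10. Mboat4 is the ghrelin acyltransferase of the stomach, and most of the others are secreted or cytosolic phospholipases A2 known mainly from other tissues.

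Probes at the lowest signals shared one offset. Where a spot is not above background, the software enters a surrogate value, and relative to the 75th percentile this value was −7.48, −7.57, and −7.05 on the WT arrays and −7.01, −6.81, and −7.12 on the Selenbp1-KO arrays. In all, 10 of the 88 probes had the surrogate on all 6 arrays, and their differences lay between 0.36 and 0.40. After quantile normalization the same 10 probes differed by −0.01 to 0.03. Over the whole array, 8905 probes had the surrogate on all arrays, with a median difference of 0.38, and 0 of them passed the test. Pla2g10 and Pla2g4f, which passed with differences of 0.51 and 0.57, had the surrogate on 5 of 6 arrays and were well above background on none, so no fold change is given. Their groups overlapped, and with quantile normalization they differed by 0.14 and 0.24 and did not pass. Pla2g2a, which is disrupted in C57BL/6 mice, had −7.40, −7.49, and −6.84 in WT and −6.91, −6.72, and −7.01 in Selenbp1-KO kidneys, all at or near the surrogate.

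**Figure D2:**
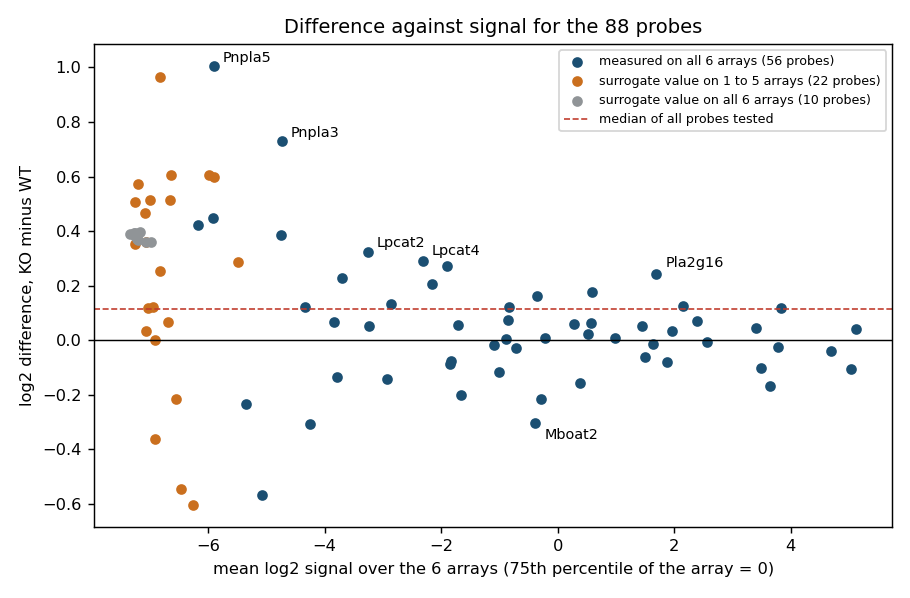
Difference in log2 signal, Selenbp1-KO minus WT, of the 88 probes against their mean log2 signal over the 6 arrays (the 75th percentile of an array is 0). The 10 grey probes, with a surrogate value on every array, lie between 0.36 and 0.40, whereas the brighter probes scatter around 0 with no member beyond 0.32 above a mean of −4.

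Among the enzymes that release fatty acids from phospholipids, none of the 10 Pla2g genes well above background throughout a genotype passed the test. Of these, Pla2g4b differed by 0.07 (95% interval −0.20 to 0.34) and Pla2g12a by 0.05 (−0.22 to 0.33). Pla2g4a, the calcium-dependent cytosolic enzyme with a preference for arachidonic acid, had −0.61, −0.93, and −0.55 in WT and −0.83, −0.52, and −0.82 in Selenbp1-KO kidneys. The groups overlapped, and the difference was −0.03 with a 95% interval of −0.41 to 0.35. Pla2g6, the calcium-independent enzyme, had −0.21, −0.15, and −0.28 in WT and −0.15, −0.27, and −0.19 in Selenbp1-KO kidneys. Its difference was 0.01 with an interval of −0.23 to 0.25, so a change of more than 0.25 in either direction lies outside it.

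Pnpla8, a calcium-independent phospholipase of mitochondria and peroxisomes, had 3.60, 3.46, and 3.57 in WT and 3.35, 3.41, and 3.57 in Selenbp1-KO kidneys. Its difference was −0.10 with an interval of −0.37 to 0.17, and the groups overlapped. Pla2g15, the lysosomal phospholipase A2, had −0.74, −1.06, and −1.04 against −1.11, −0.93, and −1.14, a difference of −0.12 with an interval of −0.44 to 0.21. Pla2g7, which inactivates platelet-activating factor and is made mainly by macrophages, had 1.96, 2.12, and 1.77 against 1.88, 1.84, and 2.23. It differed by 0.03, and its interval of −0.35 to 0.42 left room for a change either way. All 3 Pla2g7 probes were near 0, between −0.02 and 0.03.

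The secreted enzyme Pla2g5 was read by 2 probes that differed in sign. The brighter one (NM_001122954) had 0.47, 0.51, and 0.62 in WT against 0.57, 0.60, and 0.63 in Selenbp1-KO kidneys, so it differed by 0.06 with overlapping groups. The dimmer one (NM_011110) had −5.09, −4.53, and −4.76 in WT and −5.54, −5.60, and −4.95 in Selenbp1-KO kidneys, with a signal well above background on 1 WT array and no Selenbp1-KO array. Its difference of −0.57 (standard error 0.232, unadjusted p = 0.049, adjusted p = 0.279 in limma) was the one lower value among the 7 of 88 probes that passed, which is 7.95% beside 7.98% of all probes. Of the 4 Pla2g6 probes, NM_001199023 and NM_016915 differed by 0.01 and 0.00. The other two read Ensembl transcripts and differed by −0.31 (ENSMUST00000173412, well above background on 3 WT and 2 Selenbp1-KO arrays) and 0.47 (ENSMUST00000173109). The last of these passed the unadjusted test with a surrogate value on 5 of 6 arrays.

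Pla2g16, a phospholipase A of fat tissue that is also present in kidney, had 1.56, 1.56, and 1.60 in WT and 1.74, 1.94, and 1.77 in Selenbp1-KO kidneys with its first probe. The groups did not overlap, the difference was 0.24 (standard error 0.103, a fold of 1.18), and it did not pass the test (unadjusted p = 0.056, adjusted p = 0.279 in limma). It passed with quantile normalization (unadjusted p = 0.016 in limma). In WT alone the second probe had the higher mean, 1.65 against 1.57, so the first stands for the gene only through its Selenbp1-KO values. The second probe, of nearly the same brightness, had 1.60, 1.63, and 1.72 in WT and 1.52, 1.71, and 1.68 in Selenbp1-KO kidneys. Its groups overlapped and its difference was −0.01 with an interval of −0.27 to 0.24. The third probe (AK052657) was well above background on no array and had −0.54.

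Pla2g16, with its first probe, and 5 other genes had groups that did not overlap. Lpcat2, Lpcat4, Pnpla3, and Pnpla5 were also higher on every Selenbp1-KO array, and Mboat2 was lower. These are 6 of 45 genes, or 13.3%, beside 14.1% of all genes tested. Of the 29 genes well above background on all arrays 4 were among them, where 19.2% of all such genes had separate groups.

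The patatin-like family held 2 of the 5 genes that passed, both lipases at low signal. Pnpla3, adiponutrin, a lipid droplet protein with triacylglycerol hydrolase and acyltransferase activity, had −5.54, −4.93, and −4.83 in WT and −4.45, −3.88, and −4.77 in Selenbp1-KO kidneys. The lowest Selenbp1-KO array was 0.06 above the highest WT array. The difference was 0.73 (standard error 0.291, unadjusted p = 0.045, adjusted p = 0.279 in limma), and the probe was well above background on 1 WT and 3 Selenbp1-KO arrays. Its second probe was well above background on no array, had the surrogate value on 3, and differed by 0.97. Its groups were 0.05 apart and overlapped after quantile normalization, under which the brighter probe did not pass either (unadjusted p = 0.056 in limma). When slide side was a block, the brighter probe differed by 0.46 and did not pass, nor did it without WT replicate 2 or 3 or without Selenbp1-KO replicate 1 or 2.

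Pnpla5, a neutral lipid hydrolase of lipid droplets, had −6.41, −6.47, and −6.35 in WT and −5.25, −5.15, and −5.81 in Selenbp1-KO kidneys. All 3 Selenbp1-KO arrays stood clear of the WT arrays, and the fitted difference of 1.01 (standard error 0.192, unadjusted p = 0.002, adjusted p = 0.279 in limma) had the lowest unadjusted p of the 45 genes. The probe held measured values on all 6 arrays but was well above background on none, so it gives no fold change. It passed without each array in turn, and also when slide side was a block, where it differed by 0.94. Its second probe, with the surrogate value on 3 arrays, had −7.57, −6.09, and −7.15 in WT against −7.11, −5.60, and −6.28 in Selenbp1-KO kidneys. It differed by 0.61 with overlapping groups.

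The 2 genes are neighbors on chromosome 15, with 73262 bases of mm9 between their nearest probes. On both Pnpla3 probes and both Pnpla5 probes, Selenbp1-KO replicate 2 was the highest array. That array also had the lowest 75th percentile signal, 477, and the highest surrogate value, −6.81. The part of this scaling in the rank of such low-signal probes was not tested. The 8 fat marker genes, all well above background on all arrays, had summed signals of 48.8, 73.9, and 27.0 in WT and 91.1, 178, and 39.1 in Selenbp1-KO kidneys, in units of the 75th percentile, and Selenbp1-KO replicate 2 was again the highest. All 8 were higher on average in Selenbp1-KO kidneys, 0 passed the test, and the groups overlapped. Of 8 red blood cell markers 4 passed, all higher, with sums of 332, 268, and 357 in WT and 499, 574, and 382 in Selenbp1-KO kidneys, and 3 were well above background on no array. The part of fat tissue or blood RNA in the values of Pnpla3, Pnpla5, and Pla2g16 was not tested.

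The other lipases were bright and differed little. Pnpla2, adipose triglyceride lipase, the first enzyme of triacylglycerol breakdown, had 4.72, 4.90, and 4.53 in WT and 4.67, 4.84, and 4.52 in Selenbp1-KO kidneys, with overlapping groups and a difference of −0.04 (interval −0.39 to 0.31). Its coactivator Abhd5 differed by 0.08. Pnpla6 and Pnpla7, lysophospholipases of the endoplasmic reticulum, differed by 0.06 and −0.21, and Pnpla1, known from skin, by 0.01.

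**Figure D3:**
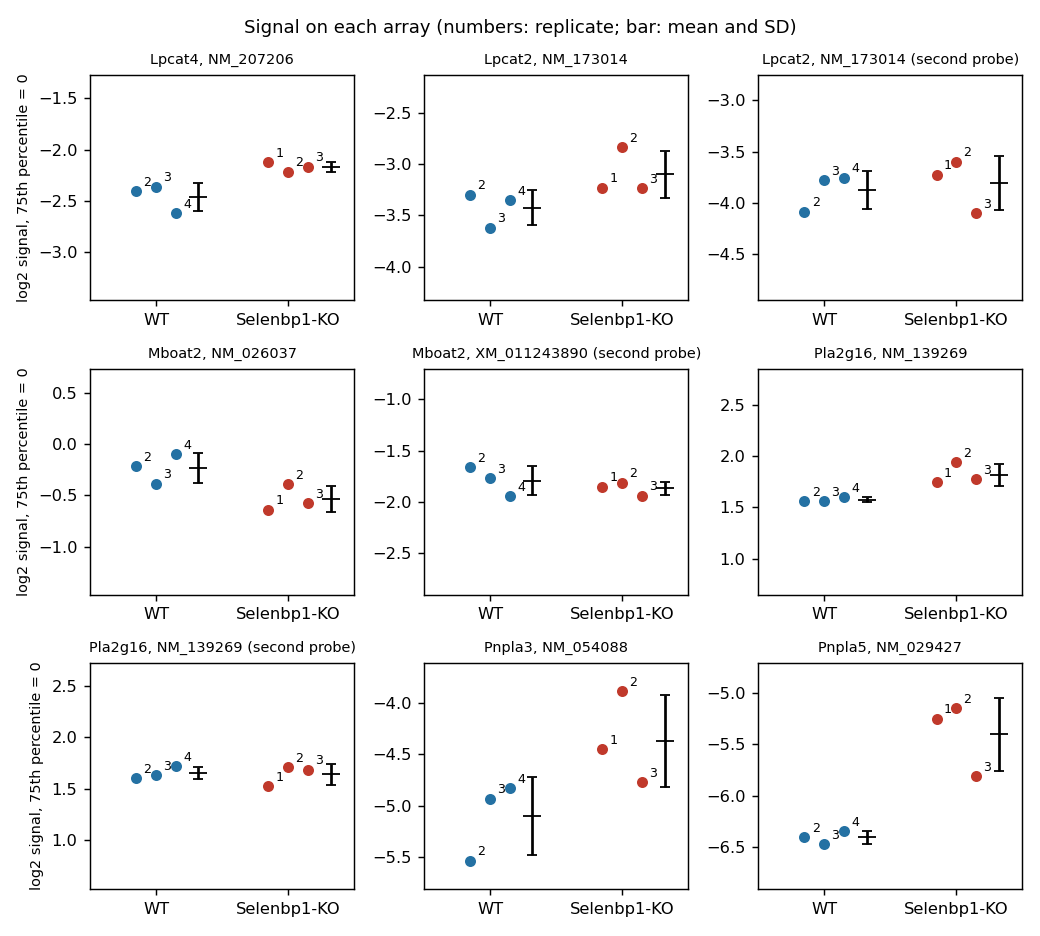
Log2 signal (the 75th percentile of the array is 0) on each array of the genes whose groups did not overlap, with a second bright probe of the gene where there is one. Points are mice, numbers their replicate, and bars the mean and SD of 3 arrays. Axes cover different ranges. The 2 Lpcat2 panels and the 2 Pla2g16 panels show separated groups in the first probe and mixed groups in the second.

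Among the enzymes that put fatty acids back, Lpcat4 was higher in Selenbp1-KO kidneys, Lpcat2 and Mboat2 had separated groups without passing the test, and the 2 acyltransferases best known for arachidonic acid had overlapping groups. Lpcat4, which acylates lysophosphatidylethanolamine and lysophosphatidylcholine, had −2.40, −2.36, and −2.62 in WT and −2.12, −2.22, and −2.17 in Selenbp1-KO kidneys. The groups did not overlap, and the difference was 0.29 (standard error 0.113, a fold of 1.22, unadjusted p = 0.041, adjusted p = 0.279 in limma). It was the one gene to pass among the 29 measured on all arrays, and it has 1 probe, so no second reading of it exists here. With the slide side as a block it differed by 0.45 and passed, whereas it passed without WT replicate 3 but not without any other array.

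Lpcat2, an acyltransferase of inflammatory cells that also makes platelet-activating factor, had −3.30, −3.62, and −3.35 in WT and −3.23, −2.84, and −3.24 in Selenbp1-KO kidneys with its first probe. The groups did not overlap, by a margin of 0.06 between the nearest arrays, and the difference of 0.32 (standard error 0.162) did not pass (unadjusted p = 0.093, adjusted p = 0.301 in limma). It passed with quantile normalization (unadjusted p = 0.047 in limma) and with the authors' own quantile normalized values (unadjusted p = 0.047 in limma). The paper lists Lpcat2 among the lipid genes that it found altered. The second probe, 5 bases away, had −4.09, −3.78, and −3.76 in WT against −3.73, −3.60, and −4.10 in Selenbp1-KO kidneys. It differed by 0.07 with overlapping groups. The third probe (BC027692) lies on the opposite strand and had the surrogate value on all arrays. Beside this, 6 of 10 macrophage markers passed the test, all higher in Selenbp1-KO kidneys. Their summed signals were 20.0, 16.4, and 17.5 in WT and 24.4, 24.3, and 22.5 in Selenbp1-KO kidneys, all 10 were well above background on all arrays, and their part in the Lpcat2 value was not tested.

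Mboat2, a lysophospholipid acyltransferase with a preference for oleic acid, had −0.22, −0.39, and −0.10 in WT and −0.64, −0.39, and −0.57 in Selenbp1-KO kidneys. WT replicate 3 and Selenbp1-KO replicate 2 nearly met, and the difference was −0.30 (standard error 0.128, a fold of 0.811), which did not pass (unadjusted p = 0.055, adjusted p = 0.279 in limma) and passed with quantile normalization (unadjusted p = 0.028 in limma) and also when slide side was a block, where it differed by −0.44. The other two Mboat2 probes differed by −0.08 and 0.12, with overlapping groups.

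Lpcat3, the main acyltransferase that places arachidonic and linoleic acid into phosphatidylcholine, had 5.11, 5.21, and 4.96 in WT and 4.995, 4.90, and 5.07 in Selenbp1-KO kidneys. The groups overlapped, and its 2 probes differed by −0.11 (interval −0.39 to 0.17) and −0.17. Mboat7, which places arachidonic acid into phosphatidylinositol, had 2.56, 2.68, and 2.49 in WT against 2.53, 2.57, and 2.60 in Selenbp1-KO kidneys, and it differed by −0.01 with an interval of −0.25 to 0.24. Its other 4 probes read Ensembl transcripts, 3 of them well above background on no array, and differed by −0.22 to 0.45 without passing the test. Lpcat1, best known from the lung, had −3.17, −3.41, and −3.20 against −3.21, −3.14, and −3.27, a difference of 0.05 (interval −0.22 to 0.33). Its second probe, above background on 2 arrays of each genotype, differed by 0.39 without passing.

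All 7 Agpat genes were well above background on all arrays, and none passed the test. These enzymes make phosphatidic acid or, in the case of Agpat6 and Agpat9, lysophosphatidic acid. Agpat2, the form whose loss causes a lack of fat tissue, had 3.86, 3.69, and 3.81 in WT and 3.90, 4.00, and 3.81 in Selenbp1-KO kidneys, with overlapping groups and differences of 0.12 and 0.18 for its 2 probes. Agpat3 had 5.11, 5.02, and 5.18 against 5.11, 5.09, and 5.24, a difference of 0.04 with an interval of −0.21 to 0.30. The remaining 5 lay between −0.08 for Agpat9 and 0.13 for Agpat1.

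**Figure D4:**
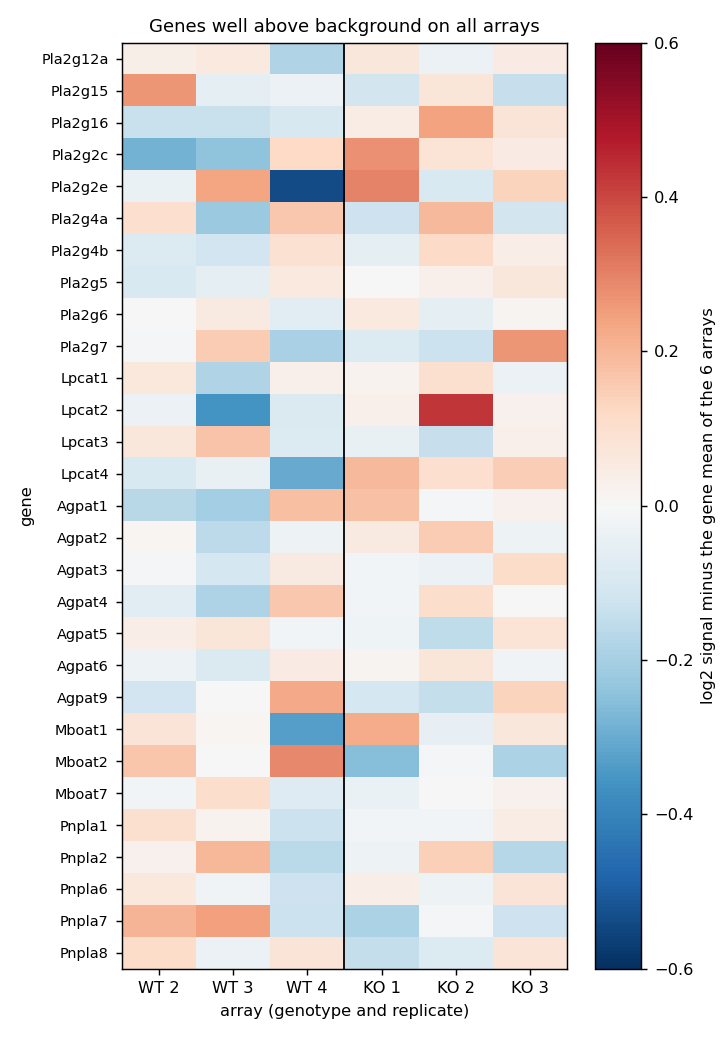
Log2 signal of each array minus the gene's mean over the 6 arrays, for the 29 genes well above background on all of them, ordered by family. The line separates 3 WT from 3 Selenbp1-KO arrays. Most cells are pale on both sides, the largest deviation is 0.54 from the mean, and Lpcat4, Lpcat2, Pla2g16, and Mboat2 are the rows whose sides do not overlap.

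The other steps of the pathway were read through 6 lists of 130 genes in all, and 11 of these passed the unadjusted test (8.46% beside 8.00% of all genes). None of 20 genes of lysophospholipid and monoacylglycerol hydrolysis passed, nor any of 20 partners, receptors, and inhibitors of phospholipases. Of 20 phospholipase C and D genes 1 passed, Pld4, a nuclease of immune cells despite its name, at 0.52 (standard error 0.157). Of 11 acyl-CoA synthetase and acyl-CoA binding genes 1 passed, Acbd5, which tethers peroxisomes to the endoplasmic reticulum, at −0.33 (standard error 0.105). Of 35 genes that make phospholipids and triacylglycerol 1 passed, Ept1, with a probe well above background on no array.

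In the list for arachidonic acid and the steps that follow it, 8 of 24 genes passed, or 33.3% beside 8.00% of all genes. Of these 8, 5 were higher and 3 lower, and the list median was −0.01. The list was chosen with earlier results of these data known. The paper had already listed Alox5, Ptgis, Cyp4a12a, and Cyp4a12b as altered on these arrays, so the count is no independent result. Alox5, the 5-lipoxygenase, was higher by 0.97 (standard error 0.285) and was well above background on 2 WT and 3 Selenbp1-KO arrays. Its activating protein Alox5ap was higher by 0.54 (standard error 0.123), and Ltc4s, Ptgis, and Hpgd, which make leukotriene C4 and prostacyclin and break down prostaglandins, by 0.38, 0.35, and 0.33. The omega-hydroxylases Cyp4a12a and Cyp4a12b differed by −0.54 and −0.57, as near-identical paralogs whose probes may read each other, and Hpgds by −0.61 at a signal well above background on no array. The cyclooxygenase Ptgs1 differed by −0.03. By real-time RT-PCR, the paper reported lower Cyp4a12a and Cyp4a12b in Selenbp1-KO kidneys. By the same method it reported no effect on Alox and Ptgs genes, and its text does not name the Alox genes measured. Alox5 and Alox5ap are made mainly by myeloid cells, and the macrophage sums given for Lpcat2 stand beside them too, with a part that was not tested. The adjusted p of each of these genes was 0.279 in limma.

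Promoters of 39 of the 45 genes were found in the RefSeq table (GRCm38.p6), 46 windows of 300 bases from 250 before to 50 after a gene's start. The 5 motifs were searched on both strands. The half-site of nuclear receptors, AGGTCA, stood in 6 of the 46 windows, 13.0% beside 16.3% of all 32851 windows, and a direct repeat of this half-site with 1 base between the copies, to which Ppar and Rxr bind as a pair, in 0 beside 0.0396%. The repeat holds the half-site. The E-box CACGTG stood in 6.52% beside 7.15%, TATAAA in 6.52% beside 13.6%, and CCAAT in 45.7% beside 37.4%. The 250 bases before the start of Pnpla3 and Pnpla5, the neighbors that both passed the unadjusted test, are written 5′ to 3′ on the strand of each gene, with CCAAT (here as ATTGG, its opposite strand) and CACGTG in capitals.
Pnpla3, chr15:84167566-84167815, plus strand: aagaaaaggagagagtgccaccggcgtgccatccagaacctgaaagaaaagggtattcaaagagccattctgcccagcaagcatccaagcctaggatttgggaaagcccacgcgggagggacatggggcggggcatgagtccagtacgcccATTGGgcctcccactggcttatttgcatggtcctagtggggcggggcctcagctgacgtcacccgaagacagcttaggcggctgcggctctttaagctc
Pnpla5, chr15:84123176-84123425, minus strand: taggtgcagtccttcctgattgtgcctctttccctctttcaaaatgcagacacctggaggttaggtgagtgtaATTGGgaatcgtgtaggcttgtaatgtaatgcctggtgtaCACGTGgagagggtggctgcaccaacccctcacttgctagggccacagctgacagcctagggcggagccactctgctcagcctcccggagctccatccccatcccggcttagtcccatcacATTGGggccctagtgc
Both windows held CCAAT, and the E-box stood in that of Pnpla5 and not in that of Pnpla3. These are matches of letters, and binding was not measured.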

How the data were processed

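The authors deposited, for each array, the output of Agilent Feature Extraction (version 9.5.1.1 in the submitters' processing notes, a later one in the file headers), with a linear intensity per spot that is background-subtracted and detrended but not normalized between arrays. Each deposited spot also carries a p-value against its background. The deposited table of the authors holds quantile normalized intensities of the same arrays.

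The log2 of the intensity minus that of the array's 75th percentile over non-control spots was computed, flagged spots (44 to 73 an array) were left out, and spots of a probe were averaged. Of 56605 probes, 56097 had a detection p under 0.05 on at least 1 array, as in the methods, all 88 members among them. This filter also admits spots below their background: 49393 probes, 80 of them members, had such a p above background, and 10 member probes had a surrogate value on every array. Genotypes were compared by limma 3.58.1 in R 4.3.3 (two-sided moderated test from lmFit and eBayes), fitted over all probes and first tested on simulated data. A gene is its brightest probe. RefSeq named 69 of the 88 probes. Values on every array are given for genes that passed or whose groups do not overlap, for a set list of the main enzymes, and for probes that differ within such a gene.

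The members and lists were chosen with earlier results of these data known. Replicates are separate mice, and 3 against 3 limits the precision. Alternatives changed the background correction, the scaling, the filter, flagged spots, the limma options, the test, blocks of slide side or replicate number, 1 array at a time, and the mean of a gene's probes. No sample was left out.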

Additional observations from a re-analysis of the deposited data

How the results depend on the processing

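The limits of these values are 3 arrays a genotype, low signal for 13 genes, and the placing of WT replicates 2 and 3 on another slide side than the other 4 arrays. Differences shift with the scaling: the median of all probes tested was 0.11 here and 0.00 with quantile normalization, under which the 3632 higher and 847 lower probes became 2570 and 2116. They became 13681 and 935 when scaled by the array median, and 1361 and 2290, with the direction turned, when slide side was a block. With quantile normalization 5 member genes passed too, with Lpcat2, Mboat2, and Pla2g16 in place of Pnpla3, Pla2g10, and Pla2g4f.

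Pnpla5 was under the threshold in all 19 alternatives that kept its probe, with differences of 0.32 to 1.21, Lpcat4 in 12 of 20 (0.19 to 0.45), Pnpla3 in 11 of 20 (0.39 to 0.93), Mboat2 in 9, Pla2g16 in 8, and Lpcat2 in 3. Pla2g16 changed sign, to −0.10, with the mean of all its probes, which includes the third, at −0.54 and well above background on no array. Selenbp1 stayed between −3.02 and −2.92. The counts of alternatives are no tally of independent checks. Those that changed only the filter or the flagged spots left the difference of Lpcat4 at 0.29 and that of Pnpla3 at 0.73. Pnpla3 stayed in the filter on probes well above background through its Selenbp1-KO arrays alone. In the main fit 4479 probes of the array, 7 member probes, 5 member genes, and 11 other pathway genes passed. Scaling by the array median gave 14616 probes (26.05%) and 18 member probes (20.45%). The filter on probes well above background gave 2841 (9.96%) and 4 (8%). Limma with trend and robust options gave 7537 (13.44%) and 11 (12.5%), with 18 other pathway genes. The methods' t-test gave 3 member probes (3.41%, beside 7.09% of all probes) and 3 member genes.

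Leaving out 1 array at a time moved the probe count from 2024 (without WT replicate 2) to 17585 (without WT replicate 4), the member probes from 3 to 20, the member genes from 1 to 9, and the other pathway genes from 7 to 13, and the median difference of the member genes lay between 0.06 and 0.08. Of all probes 3.61% passed without WT replicate 2 and 31.35% without WT replicate 4, beside 3.41% and 22.73% of the member probes. Without WT replicate 2 the gene that passed was Pnpla5. Without WT replicate 4 the 9 were Lpcat2b, Pla2g10, Pla2g10os, Pla2g2a, Pla2g2c, Pla2g4f, Pnpla3, Pnpla5, and Pnpla7, and Lpcat4 was not among them. Lpcat4 also failed without WT replicate 2 and without each Selenbp1-KO replicate, and Pnpla3 without WT replicate 2, WT replicate 3, Selenbp1-KO replicate 1, and Selenbp1-KO replicate 2.

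Replicate numbers 2 and 3 occur in both genotypes, and nothing in the labels makes them a pairing. Same-numbered arrays deviated together with correlations of 0.164 and 0.211 over probes, no more than WT replicate 3 with Selenbp1-KO replicate 1 (0.245). With the replicate number as a block, 18430 probes (32.85%), 23 member probes (26.14%), and 8 member genes passed on the 4 arrays that share numbers. A random block over all 6 arrays gave 16640 probes (29.67%), 22 member probes (25%), and 10 member genes. The cause of these shifts was not tested.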
